A study of Homo sapiens with 16 samples.

Results

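The ADAM, ADAMTS and MMP metalloproteases and the TIMPs, which inhibit them, were described in LN229, an established human glioblastoma (GBM) cell line. Members were the genes of both deposited tables whose symbol is ADAM, ADAMTS, ADAMTSL, MMP or TIMP followed by a number. This gave 40 of the 13475 genes that the tables share, with 11 ADAM, 13 ADAMTS, 2 ADAMTSL, 11 MMP and 3 TIMP genes, of 72 human genes whose RefSeq symbols fit the rule. No member was in 1 table only. RNA was sequenced in 2 experiments. In the first, untreated cells were kept in regular culture or in ischemic culture, which combined low nutrients with hypoxia. In the second, cells in either culture received the vehicle DMSO, the p38α inhibitor VX745 or MK25, an inhibitor of MK2, a kinase downstream of p38α. Each of the 8 groups had 2 libraries of this 1 unmodified cell line, and the labels give no dose or duration. Nothing in the labels states that the 2 libraries of a group came from separate cultures, so the p-values measure the spread between these libraries only.

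ADAMs sit in the cell membrane and release the outer domains of growth factors, cytokine receptors and adhesion molecules. ADAMTS proteases are secreted and cut proteoglycans, procollagens and other matrix proteins, whereas the ADAMTS-like (ADAMTSL) proteins have no protease domain. MMPs degrade collagens and other matrix components, either as secreted enzymes or anchored to the membrane. TIMPs block the active site of these enzymes, and TIMP3, which binds to the matrix, also inhibits several ADAMs and ADAMTS proteases. Invasion of GBM cells through brain matrix has long been tied to MMP2, MMP9 and MMP14.

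The tables hold log2 normalized CPM (CPM, counts relative to the scaled size of a library), with 20122017 to 37562668 reads on the listed genes of a library. Among the members, 23 had over 100 reads in every library, and 14 had a median under 100 reads. *ADAM28*, *MMP1* and *MMP10* had a library with 3 reads or fewer. Of the 7 markers listed for a glioma or mesenchymal cell line, 7 were measured, from *VIM* at 11.08 to 12.77 on the log2 scale down to *GFAP* at −0.36 to 1.06. *GFAP* was low, with 21 to 55 reads a library. *CDKN2A*, which is deleted in this line, was in neither table, nor were the endothelial markers *PECAM1*, *CDH5* and *VWF* or the immune markers *PTPRC*, *CD14* and *CD3E*. The immune marker *CSF1R* was listed in the second experiment with 12 to 44 reads. The hypoxia genes *CA9* and *VEGFA* rose in ischemic culture in both experiments, with *VEGFA* higher by 4.85 ± 0.07 (SE, adjusted p = 6.03e-14) in untreated cells and by 3.91 ± 0.05 (SE, adjusted p = 2.03e-19) with DMSO.

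Levels were compared between genes per length, as CPM per kilobase of the canonical transcript of GENCODE v44. *TIMP1*, a secreted inhibitor, ranked 1 of 40 in each of the 8 groups, at 393 in regular and 475 in ischemic untreated cells and, in the second experiment, 518 and 708 with DMSO. *MMP2*, the gelatinase A, and *TIMP2* held ranks 2 to 4 in the groups, and *TIMP3* ranks 3 to 6. Next came *MMP14*, the membrane-type protease that activates MMP2, and the sheddases *ADAM15* and *ADAM9*. In the 16 libraries the 3 TIMPs together held 58.1% to 68.4% of the summed level of the members, the MMPs 16.8% to 25.3%, the ADAMs 11.0% to 14.3% and the ADAMTS genes 1.91% to 3.18%. Ranks and shares rest on 1 length per gene, from 0.769 kilobases for *TIMP1* to 11.6 for *MMP16*. In CPM undivided by length, *TIMP1* was at 302 in regular untreated cells, below *MMP2* at 572. *MMP2*, *MMP14* and *MMP16* made up 84.7% to 91.5% of the MMP sum. In all, 21 members were above 1 CPM per kilobase in every library, 9 were below it in every library and 10 lay on both sides. *MMP9*, the gelatinase B, was among the last, at 0.482 in regular and 0.687 in ischemic untreated cells and, in the second experiment, 2.49 and 4.59 with DMSO. The tables of the experiments were scaled separately, so a level of one is not set against a level of the other. *MMP2* was far above it in each group. *MMP2* and *TIMP2* did not keep their order, since *TIMP2* was the higher in regular VX745, regular MK25 and ischemic MK25 cells.

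**Figure D1:**
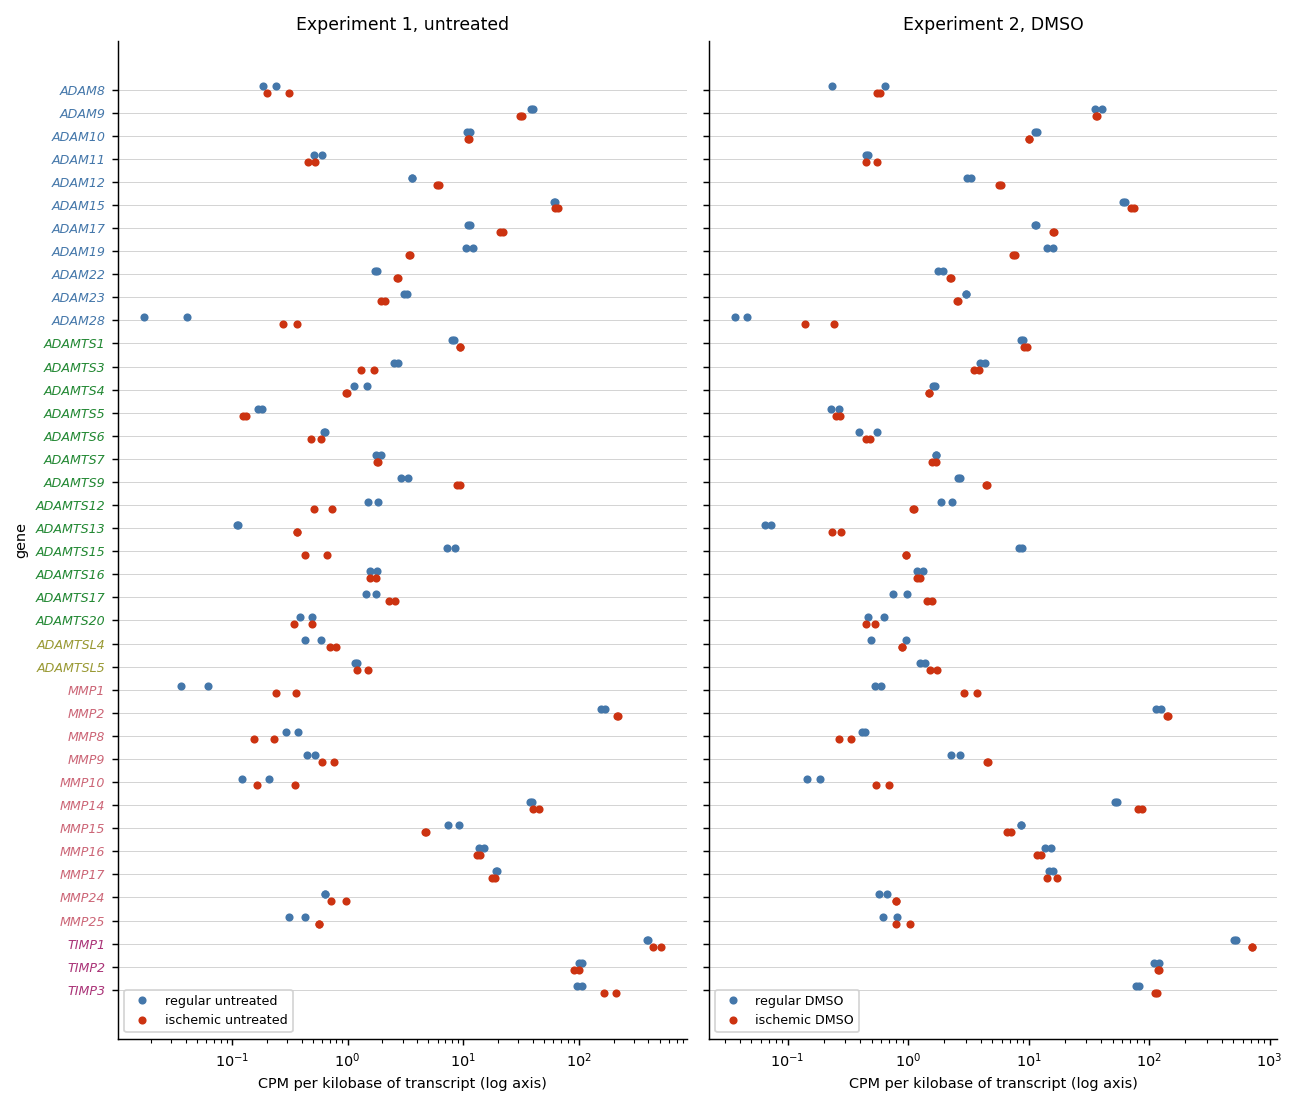
CPM per kilobase of transcript for the 40 members, on a log axis, in each library of untreated cells (left) and of cells with DMSO (right). Blue points are regular and red points ischemic culture, 2 libraries each, and label colours mark the families. *TIMP1* lies at the right end in both panels, and *ADAMTS15* moves the furthest to the left in ischemic culture.

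Promoter sequences are shown for 5 members whose RNA changed between cultures or with an inhibitor, so that their sequence can be set beside the values that follow. RefSeq (GRCh38.p14) gave a promoter for 24 of the 40 members, and the 250 bases before the start of each entry were used. That start was the 5′ end of the RefSeq gene for 23 of them, and for *ADAMTS13* it lay 8030 bases inside the gene, so its sequence is not shown. Capitals mark the core of the hypoxia response element, ACGTG or GCGTG on either strand (read as CACGT or CACGC on the other), where matches may overlap.
*ADAM19* (chr5:157575776-157576025, minus strand): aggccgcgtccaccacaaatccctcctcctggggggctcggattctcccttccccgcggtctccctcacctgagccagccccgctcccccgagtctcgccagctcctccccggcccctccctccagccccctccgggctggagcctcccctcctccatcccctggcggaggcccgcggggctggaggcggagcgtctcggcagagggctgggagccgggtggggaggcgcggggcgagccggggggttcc
*MMP10* (chr11:102780629-102780878, minus strand): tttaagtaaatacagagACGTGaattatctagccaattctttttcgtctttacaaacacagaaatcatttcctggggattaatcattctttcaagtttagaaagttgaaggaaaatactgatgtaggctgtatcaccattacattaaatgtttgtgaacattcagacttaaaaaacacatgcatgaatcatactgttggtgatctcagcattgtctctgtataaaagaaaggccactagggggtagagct
*ADAMTS12* (chr5:33891991-33892240, minus strand): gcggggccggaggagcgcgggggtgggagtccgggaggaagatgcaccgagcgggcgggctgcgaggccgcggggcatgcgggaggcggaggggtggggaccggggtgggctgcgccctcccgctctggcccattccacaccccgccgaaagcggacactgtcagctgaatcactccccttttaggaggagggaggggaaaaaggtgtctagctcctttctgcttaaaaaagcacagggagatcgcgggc
*ADAMTS6* (chr5:65481921-65482170, minus strand): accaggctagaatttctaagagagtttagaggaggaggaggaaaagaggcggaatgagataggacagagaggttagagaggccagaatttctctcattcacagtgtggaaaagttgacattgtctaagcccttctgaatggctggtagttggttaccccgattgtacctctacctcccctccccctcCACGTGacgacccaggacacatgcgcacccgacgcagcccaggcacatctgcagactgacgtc
*TIMP3* (chr22:32801455-32801704, plus strand): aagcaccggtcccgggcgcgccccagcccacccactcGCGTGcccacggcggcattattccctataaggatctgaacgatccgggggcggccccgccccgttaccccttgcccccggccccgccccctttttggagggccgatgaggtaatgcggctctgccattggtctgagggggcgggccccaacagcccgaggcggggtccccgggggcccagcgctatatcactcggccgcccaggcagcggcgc
The core was found in 13 of the 24 members (54.2%), *ADAMTS13* included, and in 43.2% of 35116 promoters of the same length. Of the 5 shown, *MMP10* and *TIMP3* had 1 match each, at −233 and −213 from the start, *ADAMTS6* had a palindromic pair at −63 and −62, and *ADAM19* and *ADAMTS12* had none. The AP-1 word TGAGTCA, read as TGACTCA on the other strand, was in none of the 24 members and in 4.2% of all promoters. A match is a string of letters in this window, and no binding was measured. There was no entry for *ADAM9*, *ADAM11*, *ADAM28*, *ADAMTS1*, *ADAMTS4*, *ADAMTS5*, *ADAMTS9*, *ADAMTS15*, *ADAMTS16*, *MMP1*, *MMP2*, *MMP9*, *MMP16*, *MMP17*, *MMP25* or *TIMP2*.

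The first question was how the families differed between ischemic and regular culture. In both experiments ischemic cells had less RNA of *ADAMTS15* and more of *ADAM28*, *ADAMTS13* and *MMP1*, by 2-fold or more. Only in untreated cells were *ADAMTS12* and *ADAM19* lower and *ADAMTS9* higher by that much, and only with DMSO was *MMP10* higher. The abundant TIMPs and MMPs moved by less than 2-fold. A gene was called when limma gave an adjusted p below 0.05 and the levels differed by 2-fold or more. In untreated cells 4 of 40 members were upregulated, against 11.3% of all genes tested, and 3 were downregulated, against 9.1%. With DMSO 4 members were upregulated, against 9.03% of all genes, and 1 was downregulated, against 8.11%. Without the threshold on the fold, 14 members were higher and 8 lower in untreated cells, against 35.2% of all genes in either direction. With DMSO 15 were higher, against 34.4%, and 7 lower, against 35.2%. The median difference of the members was 0.10 in untreated cells and 0.18 with DMSO, beside −0.01 for all genes in both. In bulk RNA, less RNA per cell and fewer cells that hold it cannot be told apart.

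The 3 TIMPs were not called, but 2 of them passed the adjusted p in each experiment. *TIMP3* was at 8.81 and 8.92 on the log2 scale in regular untreated cells and at 9.56 and 9.91 in ischemic ones. With DMSO it was at 8.56 and 8.48 and at 9.02 and 9.07. Both ischemic libraries lay above both regular ones in each experiment, with a difference of 0.87 ± 0.10 (SE, adjusted p = 7.23e-06) and of 0.52 ± 0.06 (SE, adjusted p = 4.55e-07). *TIMP1* was at 8.24 and 8.23 in regular and 8.40 and 8.62 in ischemic untreated cells, and with DMSO at 8.60 and 8.67 and 9.09 and 9.09. Its groups did not overlap either, with differences of 0.27 (adjusted p = 0.00831) and 0.45 (adjusted p = 9.23e-07). *TIMP2*, which takes part in the activation of MMP2, was at 8.52 and 8.60 in regular and 8.37 and 8.51 in ischemic untreated cells, and with DMSO at 8.64 and 8.79 and 8.75 and 8.79. For *TIMP2* the DMSO groups overlapped, and neither difference passed, at −0.12 (adjusted p = 0.157) and 0.06 (adjusted p = 0.425). Exons of *TIMP2* share 224 bases with *CEP295NL* on the same strand.

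*MMP1*, the interstitial collagenase, and *MMP10*, stromelysin 2, neighbour each other on chromosome 11 (chr11:102789401-102798160 and chr11:102770502-102780628, GRCh38). *MMP1* was at 0.16 and 0.32 in regular and 2.53 and 2.90 in ischemic cells with DMSO, an increase of 2.48 ± 0.19 (SE, adjusted p = 2.99e-09). In untreated cells it had 3 and 2 reads in the regular and 13 and 15 in the ischemic libraries (−2.30 and −2.71 and −0.85 and −0.34 on the log2 scale), so it was near the floor there. The summed reads gave a ratio of 6.05 with a 95% counting interval of 2.31 to 20.1 (exact binomial, counting error only), and limma called it at 1.90 (adjusted p = 0.00468). That call was lost without ischemic untreated replicate 2. *MMP1* shares 223 exon bases with the antisense *WTAPP1*, and the library kit keeps no strand, so their reads cannot be told apart. *MMP10* was at −1.62 and −1.34 in regular and 0.37 and 0.03 in ischemic cells with DMSO, 8 and 8 against 30 and 28 reads. It was called at 1.68 ± 0.50 (SE, adjusted p = 0.00676), but not without ischemic DMSO replicate 1. In untreated cells *MMP10* was at −1.16 and −1.76 and −1.43 and −0.52, groups that overlapped. *MMP8*, the neutrophil collagenase, which lies in the same stretch of chromosome 11, did not pass, at −0.72 (adjusted p = 0.0784) and −0.48 (adjusted p = 0.152).

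The other MMPs stayed under the threshold on the fold. *MMP2* passed the adjusted p at 0.41 (adjusted p = 0.000216) in untreated cells and 0.25 (adjusted p = 0.0017) with DMSO. *MMP14* was 0.66 (adjusted p = 1.45e-08) with DMSO, where 7.64 and 7.60 in regular cells stood against 8.23 and 8.34 in ischemic ones, and it did not pass in untreated cells, at 0.16 (adjusted p = 0.0733). *MMP15*, another membrane-type MMP, was the member of this family that passed in the other direction in both experiments, at −0.81 (adjusted p = 2.51e-05) and −0.34 (adjusted p = 0.00232). *MMP9* passed with DMSO at 0.88 (adjusted p = 4.60e-05), and its difference in untreated cells, with 29 to 39 reads a library, was 0.48 (adjusted p = 0.131). It shares 430 exon bases with the antisense *SLC12A5-AS1*. At any fold, 3 of the 11 MMPs passed as higher and 1 as lower in ischemic untreated cells, against 35.2% of all genes in either direction. With DMSO 5 were higher, against 34.4% of all genes, and 2 lower, against 35.2%.

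The ADAMTS family held the largest fall of the 40 members. *ADAMTS15*, which cuts versican and aggrecan, was at 5.44 and 5.69 in regular and 1.41 and 2.03 in ischemic untreated cells, and with DMSO at 5.66 and 5.73 and 2.54 and 2.54. Per length it ranked 15 among the members in regular DMSO cells and 28 in ischemic ones. *ADAMTS12*, a protease of cartilage oligomeric matrix protein, was at 3.70 and 3.97 in regular and 2.17 and 2.68 in ischemic untreated cells, a difference of −1.41 ± 0.17 (SE, adjusted p = 1.14e-05). With DMSO it was at 4.01 and 4.31 and 3.29 and 3.23, a difference of −0.90 (adjusted p = 1.10e-06) that fell short of 2-fold.

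In the other direction, *ADAMTS9*, a versican protease that also acts at the endoplasmic reticulum, was at 4.48 and 4.68 in regular and 6.16 and 6.09 in ischemic untreated cells, an increase of 1.55 ± 0.09 (SE, adjusted p = 1.52e-08). With DMSO its values of 4.30 and 4.36 and 5.12 and 5.08 gave 0.77 (adjusted p = 3.59e-06), under 2-fold, and 174 of its exon bases overlap *ADAMTS9-AS1*. *ADAMTS13*, which cuts von Willebrand factor, was called in both experiments at 12 and 14 reads in regular against 44 and 34 in ischemic untreated cells, and 10 and 7 against 30 and 30 with DMSO. On the log2 scale these were −0.82 and −0.78 against 0.75 and 0.76, and −1.36 and −1.50 against 0.37 and 0.13. The increases were 1.55 ± 0.30 (SE, adjusted p = 0.000567) and 1.68 ± 0.38 (SE, adjusted p = 0.000759), at a level far below that of *ADAMTS9*. *ADAMTS3*, which removes the propeptide of procollagens, passed in untreated cells at −0.81 (adjusted p = 0.000171) and not with DMSO, at −0.17 (adjusted p = 0.103). *ADAMTS17* passed in both at 0.60 (adjusted p = 0.00126) and 0.80 (adjusted p = 4.82e-05). *ADAMTS6*, *ADAMTS7* and *ADAMTS16*, which were called with an inhibitor in ischemic culture, differed by −0.25 to 0.01 between the cultures and did not pass in either experiment. *ADAMTS4*, also called with an inhibitor, passed in untreated cells at −0.40 (adjusted p = 0.0192) and not with DMSO, at −0.13 (adjusted p = 0.298).

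Of the ADAMs, *ADAM19*, a sheddase of neuregulin, was at 6.10 and 6.29 in regular and 4.48 and 4.50 in ischemic untreated cells, and with DMSO at 6.54 and 6.68 and 5.58 and 5.66. It was downregulated at −1.71 ± 0.09 (SE, adjusted p = 4.70e-09) in untreated cells and stood at −0.99 (adjusted p = 9.02e-09) with DMSO, just inside the 2-fold limit. Its exons overlap *CYFIP2* by 62 bases on the other strand. *ADAM28* was a low gene, with 3 and 8 reads in regular and 71 and 41 in ischemic untreated cells, and 8 and 8 and 42 and 29 with DMSO. On the log2 scale it was at −2.30 and −1.44 against 1.41 and 1.01, and at −1.62 and −1.34 against 0.83 and 0.08. It was upregulated at 3.08 ± 0.38 (SE, adjusted p = 1.38e-05) and 1.94 ± 0.37 (SE, adjusted p = 0.000149). Of the main sheddases, *ADAM17*, the TNF-alpha converting enzyme, passed at 0.93 (adjusted p = 2.77e-07) and 0.50 (adjusted p = 1.70e-06), whereas *ADAM10*, the sheddase of Notch receptors, was at 0.01 (adjusted p = 0.93) and −0.19 (adjusted p = 0.00793). *ADAM17* shares 1645 exon bases with *IAH1* on the other strand. *ADAM12* passed at 0.75 (adjusted p = 4.12e-06) and 0.86 (adjusted p = 2.50e-07). Among the members without protease activity, *ADAM22* was higher, at 0.62 (adjusted p = 7.66e-05) and 0.27 (adjusted p = 0.00796), and its relative *ADAM23* lower, at −0.64 (adjusted p = 0.000151) and −0.23 (adjusted p = 0.0149).

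**Figure D2:**
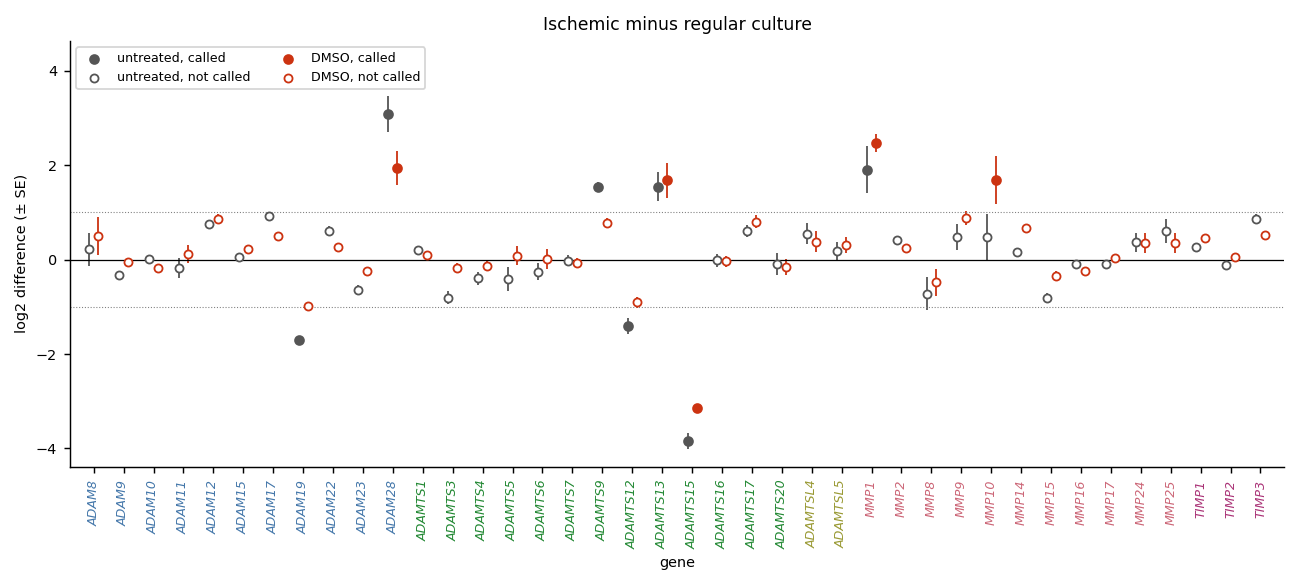
Log2 difference of ischemic minus regular culture for each of the 40 members, in untreated cells (grey) and with DMSO (red), with bars of 1 SE. Filled points were called, dotted lines mark 2-fold, and *ADAMTS15* (−3.84 and −3.15) lies lowest in both experiments.

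The second question was how VX745 and MK25 changed these genes in ischemic culture. With VX745 the matrix-bound inhibitor *TIMP3* fell and 3 ADAMTS genes, *ADAMTS16*, *ADAMTS6* and *ADAMTS7*, rose. With MK25 the collagenase gene *MMP1*, its neighbour *MMP10*, *ADAMTS4* and *ADAMTS6* fell and *ADAMTS7* rose. Calls here needed the same adjusted p and a fold of 1.5 or more. With VX745 3 members were upregulated, against 4.35% of all genes, and 1 was downregulated, against 0.906%. With MK25 1 was upregulated, against 7.02% of all genes, and 4 were downregulated, against 2.65%. Both comparisons share the ischemic DMSO libraries, so they are given side by side and not as independent results. Of the calls over all genes, 82.8% were upregulated with VX745 and 72.6% with MK25, and with quantile normalization 62.6% and 56.4%. That scaling left 2 members up and 1 down with VX745, and 0 up and 5 down with MK25.

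*TIMP3* was at 9.02 and 9.07 in ischemic DMSO, 8.16 and 8.13 in ischemic VX745 and 8.60 and 8.67 in ischemic MK25 cells. The 3 groups did not overlap, and VX745 brought it below the 8.56 and 8.48 of regular DMSO cells. The difference was −0.90 ± 0.06 (SE, adjusted p = 3.93e-08) for VX745 and −0.41 ± 0.06 (SE, adjusted p = 3.80e-05) for MK25, the latter under 1.5-fold. *TIMP1* was at 8.78 and 8.78 with VX745 and 8.89 and 8.77 with MK25, both below the 9.09 and 9.09 of DMSO, at −0.31 (adjusted p = 0.00051) and −0.26 (adjusted p = 0.00118). *TIMP2* was at 8.92 and 8.90 and 8.97 and 8.93, against 8.75 and 8.79 with DMSO. Its differences were 0.14 (adjusted p = 0.0866) with VX745 and 0.18 (adjusted p = 0.0213) with MK25, so the 3 TIMPs did not share a direction.

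*MMP1* was at 2.53 and 2.90 in ischemic DMSO cells, at 3.16 and 3.35 with VX745 and at 1.45 and 1.51 with MK25. Every VX745 library was above and every MK25 library below the DMSO libraries. MK25 lowered it, at −1.24 ± 0.19 (SE, adjusted p = 7.13e-05), and VX745 gave 0.54 ± 0.19 (SE, adjusted p = 0.0405), under 1.5-fold. *MMP10* was at 0.37 and 0.03 with DMSO, 0.22 and 0.67 with VX745 and −1.67 and −0.93 with MK25, where it had 9 and 16 reads. It fell with MK25 at −1.50 ± 0.50 (SE, adjusted p = 0.0244) and was at 0.24 (adjusted p = 0.754) with VX745. *MMP14* passed below the threshold on the fold with both, at −0.22 (adjusted p = 0.0087) and −0.55 (adjusted p = 1.23e-06), and so did *MMP16*, also membrane-type, at −0.32 (adjusted p = 0.0116) and −0.39 (adjusted p = 0.00211). *MMP2* passed with MK25, at −0.27 (adjusted p = 0.00212), and not with VX745, at −0.04 (adjusted p = 0.701). At any fold, 5 of the 11 MMPs were lower with MK25, against 22% of all genes, and 0 higher, against 19.8%. With VX745 2 were higher and 2 lower, against 14% and 14.9% of all genes.

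*ADAMTS16* was at 2.59 and 2.66 in ischemic DMSO, 3.68 and 3.73 in ischemic VX745 and 2.27 and 2.38 in ischemic MK25 cells. It rose with VX745 by 1.08 ± 0.12 (SE, adjusted p = 5.19e-06) and was at −0.30 (adjusted p = 0.0493) with MK25. *ADAMTS6*, which acts on fibrillin microfibrils, was at 1.75 and 1.84 with DMSO, 2.79 and 2.63 with VX745 and 0.76 and 1.39 with MK25. It was called in opposite directions, at 0.91 ± 0.21 (SE, adjusted p = 0.00387) and −0.72 ± 0.21 (SE, adjusted p = 0.0117). *ADAMTS7*, which cuts cartilage oligomeric matrix protein, was at 3.14 and 3.24 with DMSO, 3.94 and 3.73 with VX745 and 3.90 and 3.72 with MK25, higher with both at 0.65 (adjusted p = 0.000277) and 0.62 (adjusted p = 0.000187). *ADAMTS7* has 4 annotated pseudogenes that could share reads with it, so its values are uncertain. Its calls with VX745 and with MK25 were both lost with quantile normalization. The call with VX745 was also lost without ischemic VX745 replicate 1, and that with MK25 without ischemic DMSO replicate 1 or ischemic MK25 replicate 1.

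*ADAMTS4*, aggrecanase 1, was at 3.88 and 3.88 with DMSO, 3.46 and 3.38 with VX745 and 3.06 and 3.32 with MK25. MK25 lowered it, at −0.69 ± 0.11 (SE, adjusted p = 8.18e-05), and VX745 gave −0.46 (adjusted p = 0.00412), under 1.5-fold. In untreated cells it was at 3.49 and 3.85 in regular and 3.29 and 3.26 in ischemic culture. *ADAMTS9* was at 5.12 and 5.08 with DMSO, 4.60 and 4.71 with VX745 and 5.56 and 5.48 with MK25. Its differences had opposite signs and passed the adjusted p, at −0.44 (adjusted p = 0.00421) and 0.42 (adjusted p = 0.00356). *ADAMTS15* was not called with either, at 2.68 and 2.95 with VX745 and 2.40 and 2.60 with MK25. *ADAMTS12* was at 3.57 and 3.57 and 3.27 and 3.39, and *ADAMTS13* at 0.19 and 0.78 and 0.81 and 0.49. No ADAM was called. *ADAM19* was at 5.63 and 5.62 with VX745 and 5.71 and 5.80 with MK25, and *ADAM28* at 0.65 and 0.80 and 1.30 and 0.98. *ADAM9* passed with MK25 alone, at −0.35 (adjusted p = 0.000275), and *ADAM17* with VX745 alone, at −0.23 (adjusted p = 0.00973).

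The count with MK25 depended on 1 library. Without ischemic MK25 replicate 1 only *MMP1* was called, where the lone MK25 library is assumed to vary like the other groups. That replicate had the lowest value of the group's pair for *MMP1*, *MMP10*, *ADAMTS4* and *ADAMTS6*, and the highest for *ADAMTS7*. Without ischemic DMSO replicate 1 the calls of *ADAMTS7* and *MMP10* were lost, and without ischemic DMSO replicate 2 those of *ADAMTS6* and *MMP10*.

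Of the 40 members, 13 were called in at least 1 of the 6 comparisons of 2 groups, against 30.2% of the genes of both tables, and 27 in none. The differences of those 27 lay between −0.81, for *ADAMTS3* in ischemic untreated cells, and 0.93, for *ADAM17* in the same comparison. *ADAM8*, *ADAM11*, *ADAMTS5*, *ADAMTSL5*, *MMP8* and *MMP24*, which each had a median under 100 reads, passed the adjusted p in none of the 6. *ADAMTS1*, a versican protease at 5.33 to 5.88 in the 16 libraries, passed in 1 of the 6, at 0.20 (adjusted p = 0.0331) between untreated cultures. *ADAMTS20* was higher with both inhibitors in ischemic culture, at 0.57 (adjusted p = 0.0231) and 0.51 (adjusted p = 0.028), just under 1.5-fold. *ADAMTSL4* passed between untreated cultures at 0.55 (adjusted p = 0.0378). *MMP25*, a membrane-type MMP, did so at 0.60 (adjusted p = 0.0477), and its exons overlap *MMP25-AS1* by 1454 bases. *ADAM15* passed at 0.23 (adjusted p = 0.00276) between cultures with DMSO and at −0.16 (adjusted p = 0.0445) with MK25 in ischemic culture.

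**Figure D3:**
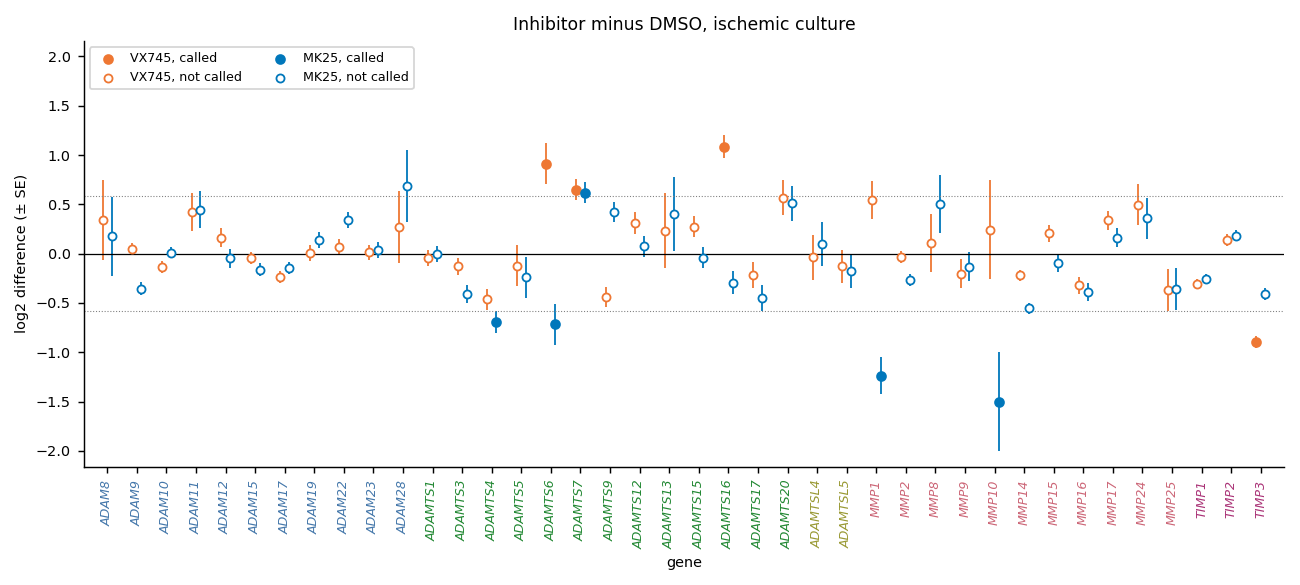
Log2 difference from DMSO in ischemic culture for each of the 40 members, with VX745 (orange) and MK25 (blue) and bars of 1 SE. Filled points were called, dotted lines mark 1.5-fold, and *ADAMTS6*, *ADAMTS9*, *ADAMTS16* and *MMP1* have points on opposite sides of 0.

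A direct contrast of MK25 with VX745 in ischemic culture was added after these opposite signs were seen, so it describes them and is no independent test. *MMP1* (−1.78 (adjusted p = 3.11e-06)), *MMP10* (−1.74 (adjusted p = 0.0219)), *ADAMTS6* (−1.63 (adjusted p = 2.67e-05)) and *ADAMTS16* (−1.38 (adjusted p = 1.93e-07)) were lower with MK25 than with VX745. *ADAMTS9* was higher, at 0.86 (adjusted p = 1.16e-05). These were 1 member up, against 1.75% of all genes, and 4 down, against 2.20%. *TIMP3* was higher with MK25 at 0.49 (adjusted p = 1.47e-05), under 1.5-fold. The labels give no doses, and the study's methods list a concentration for each inhibitor without naming these libraries. *ADAMTS7* did not differ detectably between the inhibitors, at −0.03 ± 0.11 (SE, adjusted p = 0.889).

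**Figure D4:**
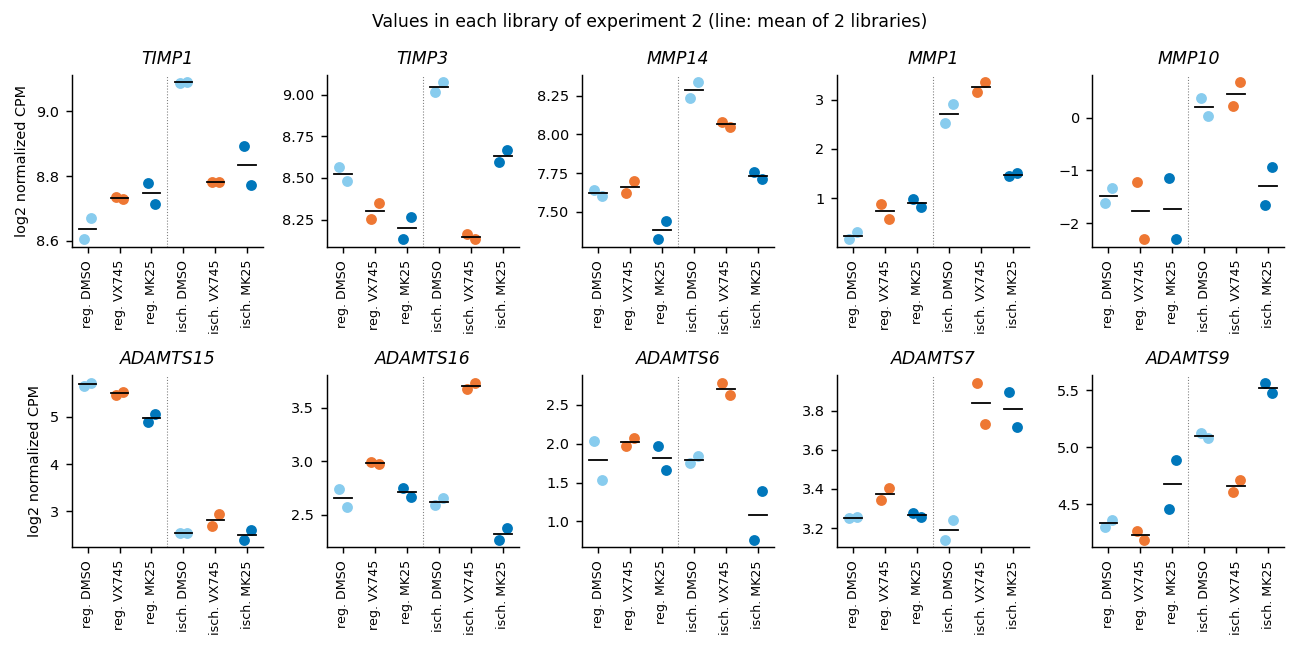
Log2 normalized CPM of 10 members in each library of the second experiment, with the mean of each pair as a line and a dotted line between regular (reg.) and ischemic (isch.) culture. The vertical axes do not start at 0, and *TIMP3* with VX745 in ischemic culture (8.13 and 8.16) lies below the regular DMSO libraries.

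With VX745 in regular culture no member was called by limma, beside 0.0642% of all genes up and 0.0357% down. At an unadjusted p under 0.05 and any fold, 8 members passed, against 14.8% of all genes, and voom on the recovered reads also called 0. With MK25 1 member was up, against 1.88% of all genes, and 2 down, against 0.606%. *ADAMTS15* was at 5.46 and 5.54 with VX745 and 4.89 and 5.07 with MK25 in regular culture, and it fell with MK25 at −0.71 ± 0.10 (SE, adjusted p = 0.000206). *ADAMTS4* was at 3.99 and 4.03 with DMSO, 3.76 and 3.99 with VX745 and 3.29 and 3.37 with MK25, a difference with MK25 of −0.68 ± 0.11 (SE, adjusted p = 0.000447). It was called lower with MK25 in both cultures. *MMP1* was at 0.89 and 0.58 with VX745 and 0.98 and 0.83 with MK25, called with MK25 at 0.66 ± 0.19 (SE, adjusted p = 0.0296), a call that was lost without any 1 of the 4 libraries of regular DMSO and regular MK25. *CA9* and *VEGFA* also rose with MK25 in regular culture, at 2.97 (adjusted p = 4.89e-05) and 0.92 (adjusted p = 1.68e-09), and their part in these changes was not tested. The size of the *CA9* rise is uncertain, since its regular DMSO libraries had 7 and 28 reads, against 91 and 111 with MK25.

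At any fold 10 members passed the adjusted p with MK25 in regular culture, 3 higher and 7 lower, beside 12.2% of all genes in both directions together. *TIMP3* was at 8.26 and 8.35 with VX745 and 8.13 and 8.26 with MK25, *TIMP1* at 8.73 and 8.73 and 8.78 and 8.71, and *TIMP2* at 8.80 and 8.91 and 8.91 and 8.995. With MK25 *TIMP3* passed at −0.32 (adjusted p = 0.00152) and *TIMP2* at 0.24 (adjusted p = 0.015), both under 1.5-fold. So did *MMP17* at −0.41 (adjusted p = 0.00997), *MMP14* at −0.24 (adjusted p = 0.0104) and *MMP16* at −0.28 (adjusted p = 0.0467), all lower, with *ADAM19* lower at −0.31 (adjusted p = 0.022) and *ADAMTS9* higher at 0.34 (adjusted p = 0.0371). *ADAMTS16* was at 2.74 and 2.57 with DMSO, 2.99 and 2.98 with VX745 and 2.75 and 2.67 with MK25. *ADAMTS6* was at 2.04 and 1.54, 1.96 and 2.07 and 1.97 and 1.67 in the same order, and *ADAMTS7* at 3.25 and 3.25, 3.34 and 3.40 and 3.27 and 3.26. The regular DMSO libraries of *ADAMTS6* were further apart than its group means in this culture. *ADAMTS9* was at 4.27 and 4.19 with VX745 and 4.46 and 4.89 with MK25, *ADAMTS12* at 4.16 and 4.42 and 3.94 and 3.92, and *ADAM19* at 6.41 and 6.57 and 6.17 and 6.44. The low genes *MMP10* (−1.23 and −2.29 with VX745, −1.15 and −2.31 with MK25), *ADAM28* (−0.51 and −1.39, −1.003 and −0.86) and *ADAMTS13* (−0.22 and −1.09, −1.31 and −0.75) had wide pairs, apart from *ADAM28* with MK25. *ADAMTS13* with VX745 was at 0.78 (adjusted p = 0.35) without passing. In untreated cells *ADAMTS16* was at 2.98 and 3.16 in regular and 2.99 and 3.13 in ischemic culture, *ADAMTS6* at 2.22 and 2.25 and 2.12 and 1.84, and *ADAMTS7* at 3.28 and 3.43 and 3.36 and 3.31.

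Whether an inhibitor acted differently in the cultures was tested by the interaction, the response in ischemic minus the response in regular culture, at an adjusted p under 0.05 and any fold. For VX745 4 members were positive, against 5.78% of all genes, and 3 negative, against 6%. *TIMP3* (−0.68 (adjusted p = 0.000194)) and *TIMP1* (−0.40 (adjusted p = 0.00375)) were negative and *ADAMTS16* (0.76 (adjusted p = 0.00824)) positive. Against DMSO, *TIMP3* was at −0.22 in regular and −0.90 in ischemic culture, *TIMP1* at 0.09 and −0.31, and *ADAMTS16* at 0.33 and 1.08. For MK25 4 were positive, against 10.5% of all genes, and 4 negative, against 13.9%. *MMP1* had the largest of these, −1.90 ± 0.27 (SE, adjusted p = 9.97e-05), since MK25 lowered it in ischemic and raised it in regular culture. *TIMP1* (−0.37 (adjusted p = 0.00237)) and *MMP14* (−0.31 (adjusted p = 0.01)) were negative with MK25, and *ADAMTS15* (0.67 (adjusted p = 0.0032)), *ADAMTS7* (0.60 (adjusted p = 0.00706)) and *MMP17* (0.57 (adjusted p = 0.0055)) positive. The count for VX745 dropped to 3 with quantile normalization, without the variance trend, or without regular DMSO replicate 2, regular VX745 replicate 2 or ischemic DMSO replicate 1. It was 4 without regular VX745 replicate 1 or ischemic VX745 replicate 1. *TIMP3* and *ADAMTS16* with VX745, and *MMP1*, *ADAMTS7*, *ADAMTS15* and *MMP17* with MK25, were lost under 0 of 16 alternatives. *TIMP1* was lost under 1 of 16 with each inhibitor, quantile normalization. An unadjusted p, 1 of the 16, could not lose a call.

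Sums over a family, per length, show what the single genes add up to. The TIMP sum was 592 and 604 CPM per kilobase in regular and 693 and 822 in ischemic untreated cells. With DMSO it was 698 and 728 in regular and 939 and 947 in ischemic cells, and in ischemic culture 767 and 764 with VX745 and 840 and 791 with MK25. *TIMP1* made up most of this sum. The MMP sum was 236 and 255 in regular and 294 and 302 in ischemic untreated cells, 221 and 211 and 265 and 278 with DMSO, and 262 and 257 and 216 and 216 in ischemic cells with VX745 and MK25. The ratio of the sums does not depend on the scaling of a library. It does depend on the lengths, and the canonical transcript of *TIMP1* has 0.769 kilobases. Undivided by length, the TIMP sum was 1117 and 1176 CPM in regular and 1422 and 1724 in ischemic untreated cells. The MMP sum was 928 and 1008 and 1127 and 1165 CPM in the same order. Overlap and order of the ratio are given per length only and can differ in undivided CPM. Per length the ratio was 2.51 and 2.37 in regular and 2.36 and 2.72 in ischemic untreated cells, which overlapped. In the second experiment it was 3.16 and 3.45 in regular DMSO, 3.69 and 3.48 in regular VX745 and 4.05 and 3.82 in regular MK25 cells. The ischemic DMSO libraries had 3.54 and 3.41, the ischemic VX745 libraries 2.92 and 2.97 and the ischemic MK25 libraries 3.89 and 3.66. The ischemic VX745 libraries were thus the lowest and the ischemic MK25 libraries the highest of the ischemic ones. Per length the highest single ratio of the experiment was in a regular MK25 library, and no test was made on these pairs. The ADAM sum lay between 143 and 146 in the untreated libraries and between 138 and 157 in those of the second experiment.

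**Figure D5:**
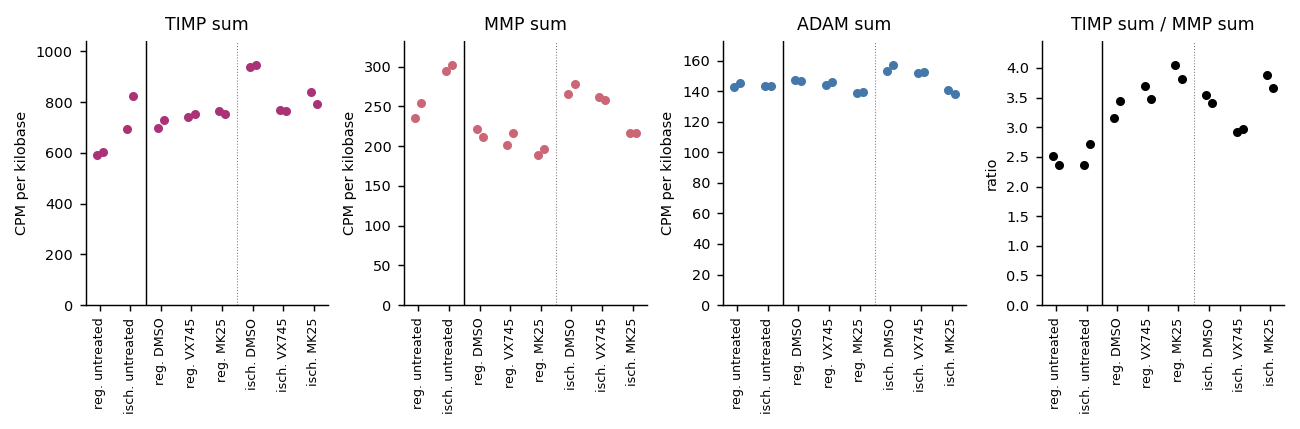
Summed level of the TIMP, MMP and ADAM genes in CPM per kilobase, and the TIMP to MMP ratio, with 1 point per library. A solid line separates the experiments, a dotted line regular (reg.) from ischemic (isch.) culture with DMSO or an inhibitor, and the ischemic VX745 libraries have ratios of 2.92 and 2.97.

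Genes that act with these proteases were counted by lists, whose counts stand beside the shares of all genes called that are given above for each comparison. Of 7 measured activators of secreted proteases, *PLAUR*, the urokinase receptor, was called in ischemic culture, at 1.004 (adjusted p = 2.64e-07) and 1.54 (adjusted p = 3.60e-13). In ischemic culture MK25 lowered *PLAUR* at −0.80 (adjusted p = 3.62e-08) and *PLAT*, the tissue plasminogen activator, at −0.88 (adjusted p = 6.00e-08), and none of the 7 was called with VX745. Of 7 genes listed as inhibitors outside the TIMP family and reported here, *RECK*, a membrane-bound inhibitor of MMPs and ADAM10, was lower in ischemic than regular culture with DMSO at −1.04 (adjusted p = 7.62e-07). *SPOCK2* was called with MK25 in ischemic culture, at 15 to 74 reads over the libraries and 1.14 (adjusted p = 0.00993). Its ischemic MK25 libraries were far apart, at 0.13 and 1.06 (36 and 74 reads), against 15 and 18 reads with DMSO. It is counted by its place in the list, and whether it acts as an inhibitor was not tested. None of the 7 was called with VX745 or between the untreated cultures. Of 9 regulators of ADAM10 and ADAM17, *TSPAN15*, which guides ADAM10, fell in ischemic culture at −1.62 (adjusted p = 0.000454) and −1.15 (adjusted p = 9.58e-05), and *TSPAN5* was higher with DMSO at 1.11 (adjusted p = 8.21e-11). *TSPAN10* fell in ischemic culture at −1.31 (adjusted p = 0.00439) and −1.01 (adjusted p = 0.00398), and rose in it with VX745 (0.99 (adjusted p = 0.014)) and MK25 (1.30 (adjusted p = 0.00136)). Both *TSPAN15* and *TSPAN10* were low, at 11 to 74 and 9 to 79 reads over the libraries. Of 3 inducer and clearance receptors, *LRP1*, which takes up TIMP3 and several proteases, rose in ischemic untreated cells at 1.30 (adjusted p = 4.84e-07) and with MK25 in ischemic culture at 0.69 (adjusted p = 5.52e-06).

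Membrane proteins shed by ADAMs gave 2 up and 2 down of 15 measured in untreated cells, and 2 up and 1 down of 16 with DMSO. These stand beside 11.3% up and 9.1% down of all genes in untreated cells and 9.03% and 8.11% with DMSO. *L1CAM* rose in both, at 1.71 (adjusted p = 2.12e-09) and 1.06 (adjusted p = 6.20e-10), and *IL6R* fell, at −1.25 (adjusted p = 7.90e-07) and −1.24 (adjusted p = 4.97e-10). In ischemic culture 3 rose and 1 fell with VX745, against 4.35% and 0.906% of all genes, and 1 rose and 3 fell with MK25, against 7.02% and 2.65%. *HBEGF*, a ligand of the EGF receptor, was called in opposite directions, at 0.78 (adjusted p = 0.000295) with VX745 and −0.69 (adjusted p = 0.000371) with MK25. *IL6R* rose with VX745 at 1.04 (adjusted p = 2.67e-07), and *NRG1*, a neuregulin, fell with MK25 at −1.21 (adjusted p = 6.00e-08). *CX3CL1* rose with both, at 0.73 (adjusted p = 0.000305) and 0.99 (adjusted p = 7.59e-06). Of 6 measured matrix substrates of ADAMTS proteases, 1 was called, *BCAN* (brevican), at 2.68 (adjusted p = 1.14e-07) and 2.56 (adjusted p = 2.48e-11) in ischemic culture, and none was called with an inhibitor against DMSO. Of the related genes outside the name rule, 2 of 8 were measured in untreated cells and 3 in the second experiment, and none was called between cultures or against DMSO.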

How the data were processed

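LN229 libraries were made with a SMART-Seq kit that keeps no strand. Per the labels and the methods of the study, reads were aligned with HISAT2 to GRCh38, counted on genes and normalized with edgeR in Galaxy, whose versions are not given in the sources used here. The authors deposited log2 normalized CPM, 1 table per experiment (13559 and 14024 genes by Entrez identifier), and the tables were normalized separately, so tests were made within a table, and a range over the 16 libraries spans tables scaled apart. Symbols came from RefSeq (99.4% and 99.3% matched). These log2 values were used unchanged. Each value holds an offset of 1.49 to 2.62 reads, which shrinks differences of low genes. Unlogged values fell on whole reads in 100% of cases (within 0.1 read), which gave the reads per gene. A floor of 3 reads equals −2.71 to −2.16 on the log2 scale.

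Differences came from limma 3.58.1 (R 4.3.3) with a variance trend, 1 mean per group and two-sided p-values adjusted by Benjamini-Hochberg over all genes of a table. The 4 libraries of the first and the 12 of the second experiment were fitted apart. On simulated data 200 of 200 changed genes were recovered in each experiment. They were changed by 2 on the log2 scale, with a spread set in advance and not taken from these libraries, and only ischemic against regular culture was checked. Recovery near the 2-fold limit, of 1.5-fold differences, of low genes, of the inhibitor comparisons and of interactions was not tested. The study's test takes counts, which the deposited values are not. Alternatives were other folds, p-values, filters, scalings and variance models, voom on recovered reads, a replicate block, fewer groups and each library left out. Members, gene lists and tests were chosen with earlier results of these data known. Values in every library are given for the TIMPs and for members called in a comparison of 2 groups whose group mean reaches 0. Lengths and overlaps came from GENCODE v44 and promoters from RefSeq, both on GRCh38. A gene of the lists is not reported here. Figures were drawn with matplotlib in Python.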

Additional observations from a re-analysis of the deposited data

Results flagged for a closer look

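Each result below was picked because the response to an inhibitor differed between ischemic and regular culture in the interaction of limma, at an adjusted p under 0.05 over all genes. Values are the log2 response in ischemic minus that in regular culture. With VX745 the difference was positive for *ADAMTS15* (0.47, adjusted p = 0.0465), *ADAMTS16* (0.76, adjusted p = 0.00824), *ADAMTS7* (0.53, adjusted p = 0.0304) and *MMP17* (0.51, adjusted p = 0.0211). It was negative for *MMP14* (−0.26, adjusted p = 0.0481), *TIMP1* (−0.40, adjusted p = 0.00375) and *TIMP3* (−0.68, adjusted p = 0.000194). With MK25 it was positive for *ADAM19* (0.44, adjusted p = 0.0106), *ADAMTS15* (0.67, adjusted p = 0.0032), *ADAMTS7* (0.60, adjusted p = 0.00706) and *MMP17* (0.57, adjusted p = 0.0055). It was negative for *ADAM9* (−0.26, adjusted p = 0.0436), *MMP1* (−1.90, adjusted p = 9.97e-05), *MMP14* (−0.31, adjusted p = 0.01) and *TIMP1* (−0.37, adjusted p = 0.00237). *ADAMTS7*, *ADAMTS15*, *MMP14*, *MMP17* and *TIMP1* are in both lists, which share the 4 DMSO libraries. For *MMP17*, a membrane-type MMP, the regular libraries were at 5.16 and 5.26 with DMSO, 5.10 and 4.97 with VX745 and 4.93 and 4.68 with MK25, and the ischemic ones at 5.11 and 5.37, 5.65 and 5.51 and 5.44 and 5.37. *ADAM9* with MK25 was lost under 8 of 16 alternatives, and with VX745 *ADAMTS15* under 11, *MMP14* under 9, *ADAMTS7* under 7 and *MMP17* under 5. With MK25 *ADAM19* was lost under 3 and *MMP14* under 2.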

How the results depend on the processing

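Counts of members called under the alternatives were as follows. At any fold they were 22 for ischemia in untreated cells, 22 for ischemia with DMSO, 14 for VX745 and 19 for MK25 in ischemic culture, 10 for MK25 in regular culture and 13 for MK25 against VX745, of 40 members each, where 70.4%, 69.6%, 28.9%, 41.7%, 12.2% and 18.4% of all genes passed. At a fold of 1.5 ischemia gave 16 in untreated cells and 12 with DMSO, against 41.4% and 36% of all genes. At a fold of 2 the inhibitors gave 1 for VX745 and 2 for MK25 in ischemic culture, and 0 for MK25 in regular culture, against 1.38%, 2.74% and 0.827% of all genes. With only genes of a mean log2 value of at least 0, ischemia gave 4 and 2, since low genes were not tested. The interaction of VX745 gave 11 at an unadjusted p, against 27.2% of all genes, 3 with quantile normalization and 3 without the variance trend. Leaving out 1 library gave 6 to 8 for ischemia in untreated cells and 4 to 7 with DMSO, 3 to 6 for VX745 and 1 to 5 for MK25 in ischemic culture, 2 for MK25 in regular culture, 3 to 7 and 6 to 12 for the interactions of VX745 and MK25, and 4 to 5 for MK25 against VX745. The cause of these shifts was not tested. With the replicate number as a block the counts were 7, 5, 4, 5, 0, 3, 7, 8 and 5, as without it, in the order untreated ischemia, DMSO ischemia, VX745 and MK25 in ischemic culture, VX745 and MK25 in regular culture, both interactions and MK25 against VX745. Correlations of replicate differences were −0.27 to 0.32 over 15 pairs of groups in the second experiment and 0.27 for the 1 pair in the first. With 2 libraries per group, these values cannot settle whether the replicate numbers pair the libraries. Of 529 values of single members under an alternative, 460 kept their call, 69 lost it and 0 changed sign. The 529 leave out other folds, unadjusted p-values and the low members that the filter on the mean log2 value removed. Low reads limit *ADAM28*, *ADAMTS13*, *MMP1* and *MMP10*.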
